A study of Mus musculus with 12 samples.

Results

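The connexin gap junction genes Gjb2, Gjb6, Gjb5, Gja1, Gja4, Gja5 and Gjc1 were followed in immortalised mouse striatal cells. All probes of the unnormalised signal table annotated to one of these 7 symbols were taken, which gave 13 of 44505 probes. A probe was called detected on an array at a detection p under 0.01, and 6 probes of 5 of the genes were detected on at least 2 of 12 arrays and entered the tests, among 15224 probes of the whole table. The genes were chosen by the measured Hdh109/109 to Hdh7/7 difference of Gjb2 and by family membership. Differences between the lines are therefore given as descriptions, and calls between the lines are not read as tests of these genes.

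Hdh109/109 cells come from homozygous knock-in mice with 109 CAG repeats in the huntingtin gene (Hdh), a cell model of Huntington's disease, and Hdh7/7 cells from homozygous mice with 7 repeats. Each line was transfected with DNRest, transfected with an empty vector or left untransfected, with 2 arrays in each of the 6 groups. The study describes DNRest as a dominant-negative form of REST, a repressor of neuronal genes, while the labels give only its name. All cells were grown at 33 °C, and 1 line stands for each genotype, so genotype and line cannot be told apart. The series calls the samples biological replicates, but no label names separate cultures, and the spread between arrays that the p-values rest on may be technical. Groups were taken from titles, which match the genotype labels. The source name gives the other genotype for 6 of the 12 arrays.

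An array detected between 10295 and 14370 probes. Across probes, Pearson's r was 0.979 to 0.993 within groups and 0.887 to 0.916 between arrays of the different lines. Background was high on 2 arrays, with a median raw signal of 156 on Hdh109/109 untransfected 2 and 161 on Hdh7/7 empty vector 2, against 70.2 to 104 on the others. Levels below are normalised log2 bead signals, which can be compared across groups within a probe but not between probes. With RNA from whole cultures, fewer cells making a transcript and less transcript per cell cannot be told apart.

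Connexins are membrane proteins that assemble into rings, and a ring in one cell docks with a ring in its neighbour to form a channel for ions and small molecules. Patches of such channels are gap junctions, which in the striatum couple astrocytes into networks and join some neurons. Gja1 and Gjb6 are the main connexins of astrocytes, Gjb2 is prominent in the leptomeninges, Gja4 and Gja5 are typical of endothelium, Gjc1 of vascular smooth muscle and early heart, and Gjb5 of skin and placenta.

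Gjb2 (chr14:57098602-57104702) and Gjb6 (chr14:57123301-57133611) are neighbours on the minus strand, 18.6 kb apart in RefSeq's GRCm38.p6 annotation. The same chromosome holds Gja3 (chr14:57034460-57058030), which ends 40.6 kb from Gjb2. Gja4 (chr4:127311420-127314039) and Gjb5 (chr4:127354809-127358164) share another chromosome. Gja1 (chr10:56377300-56390419), Gja5 (chr3:97032402-97053634) and Gjc1 (chr11:102799477-102819686) each lie on a chromosome of their own among the 7 genes. RefSeq promoter sequences were matched for 6 of the 7 genes. Shown here are the 250 bases before the start of the 3 genes detected mainly in Hdh109/109 cells and of Gja1, detected in both lines, at chr14:57104703-57104952 for Gjb2, chr14:57133612-57133861 for Gjb6, chr4:127314040-127314289 for Gja4 (all minus strand) and chr10:56377050-56377299 for Gja1 (plus strand). Capitals mark matches, on either strand, to GGGCGG (the GC box bound by Sp1), GCCNNNGGC (a motif of AP-2 factors) or TGANTCA (a motif of AP-1 factors).
Gjb2: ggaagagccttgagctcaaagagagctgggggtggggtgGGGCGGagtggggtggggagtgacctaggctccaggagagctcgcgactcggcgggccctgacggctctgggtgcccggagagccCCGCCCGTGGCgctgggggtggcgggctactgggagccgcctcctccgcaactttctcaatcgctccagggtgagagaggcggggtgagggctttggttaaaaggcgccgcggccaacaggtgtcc
Gjb6: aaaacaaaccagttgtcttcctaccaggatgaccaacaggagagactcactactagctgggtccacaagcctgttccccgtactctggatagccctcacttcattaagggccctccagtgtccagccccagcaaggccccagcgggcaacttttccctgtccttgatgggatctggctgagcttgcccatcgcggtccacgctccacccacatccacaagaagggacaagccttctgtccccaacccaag
Gja4: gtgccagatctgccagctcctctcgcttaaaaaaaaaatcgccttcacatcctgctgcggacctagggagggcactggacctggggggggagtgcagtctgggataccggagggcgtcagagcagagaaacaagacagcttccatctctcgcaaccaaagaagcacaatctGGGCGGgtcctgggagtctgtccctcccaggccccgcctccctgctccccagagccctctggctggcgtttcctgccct
Gja1: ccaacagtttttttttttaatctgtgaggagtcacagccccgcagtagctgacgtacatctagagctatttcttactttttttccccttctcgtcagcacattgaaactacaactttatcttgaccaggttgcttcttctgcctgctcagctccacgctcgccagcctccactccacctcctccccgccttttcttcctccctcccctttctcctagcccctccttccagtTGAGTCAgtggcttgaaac

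The Gjb2 window is rich in G and C, at 69.2% of bases, above 89.6% of the 32851 RefSeq promoter windows of this length, whose median is 52.4%. It holds 18 CpG sites, against 5 in Gjb6, 9 in Gja4 and 6 in Gja1. GC content was 56.8% for Gjb6, 61.2% for Gja4 and 50% for Gja1. The GC box occurred at 211 and 126 bases before the Gjb2 start and at 79 bases before the Gja4 start, and 32.7% of all windows hold one. An AP-2 motif began 124 bases before the Gjb2 start and overlapped the nearer GC box, so these matches share bases; 13.7% of all windows hold that motif. The AP-1 motif was found 19 bases before the Gja1 start, as in 6.75% of all windows at any position. None of the 3 motifs was found in the Gjb6 window. Of the windows not shown, Gja5 held a GC box 17 bases before its start and Gjb5 an AP-2 motif at 71 bases. Both genes were detected on no array. These letter matches are not evidence of binding.

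Gjb2, whose line difference led to the choice of these genes, was detected in Hdh109/109 cells only. Its brighter probe (ILMN_1227148, probe 1) had log2 levels of 11.54 and 11.75 with DNRest, 11.38 and 11.81 with empty vector and 11.99 and 11.83 untransfected in Hdh109/109 cells. Its levels in Hdh7/7 cells were 5.04 and 4.74 with DNRest, 4.91 and 4.86 with empty vector and 5.06 and 4.68 untransfected. All 6 Hdh109/109 arrays detected it and none of the 6 Hdh7/7 arrays did, so the groups did not overlap in any state. The raw bead signal was 2971 to 5095 on Hdh109/109 arrays, against 61.9 to 152 on Hdh7/7 arrays, where the detection p was 0.148 to 0.663. Because Hdh7/7 signals lay within background, folds are lower bounds, taken for each dim array from the higher of the probe's own level and the lowest level detected on that array. By that bound Hdh109/109 cells exceeded Hdh7/7 cells in Gjb2 by at least 47.7-fold with DNRest, at least 37.7-fold with empty vector and at least 66.0-fold untransfected. Bounds also follow the lowest detected level of the Hdh7/7 arrays, 6.73 log2 on empty vector 2 and 5.82 to 6.07 on the others. Differences in bounds between states are therefore not read, here or for the connexins below. These bounds hold for background-corrected signals only: without that correction the measured log2 difference was 4.98 with DNRest, 4.92 with empty vector and 5.26 untransfected, which is below them.

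The other Gjb2 probe (ILMN_2604713, probe 2) was also detected on all Hdh109/109 arrays and on no Hdh7/7 array, at far smaller size. Its log2 levels were 6.17 and 6.31 with DNRest, 6.66 and 6.82 with empty vector and 6.30 and 6.70 untransfected in Hdh109/109 cells. The Hdh7/7 levels were 4.48 and 4.53 with DNRest, 4.47 and 4.72 with empty vector and 4.54 and 4.57 untransfected. The bounds were at least 1.13-fold with DNRest, 1.30-fold with empty vector and 1.55-fold untransfected. Both probes were thus higher in Hdh109/109 cells, with bounds of very different size.

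Markers of other cell types moved with the line. Of 10 leptomeningeal fibroblast genes with a probe, 6 were detected in Hdh109/109 cells and 2 in Hdh7/7 cells. Their summed signal was 8645 to 12843 on Hdh109/109 arrays, against 932 to 1723 on Hdh7/7 arrays. Zic1, Dcn, Col1a2 and Pdgfra were detected in Hdh109/109 cells only, while Foxc1, Aldh1a2, Slc22a6 and Lum were detected in neither line. Because Zic1, Dcn, Col1a2 and Pdgfra entered the tests through that line alone, no count of calls is given for this list. The summed signal of 6 astrocyte markers was 1175 to 1351 on Hdh109/109 arrays, against 323 to 868 on Hdh7/7 arrays, with only Slc1a3 and Glul detected. Of the neural progenitor genes, Nes was detected on all arrays, and Sox2 and Pax6 on 0 of 6 Hdh109/109 arrays and 6 of 6 Hdh7/7 arrays. Sox1, Hes5 and Fabp7, the other progenitor genes with a probe, were detected in neither line. The 6 epithelial, 4 microglial and 4 oligodendrocyte markers with a probe were detected on no array, and of 8 neuronal markers only Tubb3 and Map2 were detected, so Ppp1r1b, Drd1 and Drd2, defining markers of mature striatal neurons, were detected nowhere. The part of these marker differences in the connexin levels was not tested.

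Gjb6, whose protein can share mixed channels with the Gjb2 protein, was dim. Its single probe (ILMN_1250356) read 6.55 and 5.84 log2 with DNRest, 6.01 and 6.26 with empty vector and 6.30 and 6.62 untransfected in Hdh109/109 cells. The Hdh7/7 readings were 5.53 and 5.44 with DNRest, 5.45 and 4.93 with empty vector and 5.26 and 5.62 untransfected. It was detected on 5 of 6 Hdh109/109 arrays, all but DNRest 2, and on 0 of 6 Hdh7/7 arrays. Every Hdh109/109 array lay above every Hdh7/7 array, but the bounds were only at least 1.09-fold with DNRest and at least 1.52-fold untransfected, and with empty vector the bound fell under 1 and no fold is given. Under alternative processing the measured untransfected difference was as low as 0.45 log2, below the bound given for that state. The Hdh109/109 DNRest arrays had an SD of 0.51.

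Gja4, the endothelial and oocyte connexin, had the same detection pattern as Gjb2. Its probe (ILMN_2737704) read 6.49 and 6.21 log2 with DNRest, 6.44 and 5.93 with empty vector and 6.82 and 6.77 untransfected in Hdh109/109 cells. Against these stood Hdh7/7 levels of 5.14 and 4.97 with DNRest, 5.06 and 5.22 with empty vector and 5.27 and 5.13 untransfected. Detection was 6 of 6 arrays in Hdh109/109 cells and 0 of 6 in Hdh7/7 cells, without overlap. The difference was at least 1.22-fold with DNRest and at least 1.91-fold untransfected, and with empty vector the bound was under 1. Without background correction the measured untransfected difference was 0.73 log2, below that bound. Among the endothelial markers Pecam1, Cdh5, Kdr, Tek, Vwf and Flt1, only Flt1 was detected, in both lines; the summed normalised signal of the 6 was 293 to 372 on Hdh109/109 arrays and 351 to 559 on Hdh7/7 arrays.

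Gjc1 was detected on all 12 arrays by 1 of its 3 probes (ILMN_2752276, probe 1). In Hdh109/109 cells its log2 levels were 10.11 and 10.03 with DNRest, 10.13 and 10.28 with empty vector and 10.28 and 10.12 untransfected. Levels in Hdh7/7 cells were 9.72 and 9.81 with DNRest, 9.83 and 9.85 with empty vector and 9.79 and 9.69 untransfected. The lines did not overlap, and the gap was small, 0.30 log2 with DNRest, 0.36 with empty vector and 0.46 untransfected. With arrays scaled to their medians the empty vector value was 0.95, which is 0.34 above the median over all probes, against 0.33 above it under quantile normalisation. Averaged over states the gap came to 0.37 log2, or 1.30-fold.

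Gja1, the main gap junction gene of astrocytes and fibroblasts, was bright in both lines. Its probe (ILMN_1244291) read 13.03 and 13.07 log2 with DNRest, 12.92 and 13.07 with empty vector and 13.02 and 13.05 untransfected in Hdh109/109 cells. Hdh7/7 cells gave 13.16 and 13.12 with DNRest, 13.13 and 13.26 with empty vector and 12.77 and 12.51 untransfected. The lines overlapped over all states, and their means were 13.02 ± 0.06 in Hdh109/109 cells and 12.99 ± 0.29 in Hdh7/7 cells (SD, n = 6 each). The sign depended on the state. The line difference was -0.09 with DNRest, -0.21 with empty vector and 0.40 untransfected, where both Hdh7/7 arrays were the lowest of the 12. Scaling arrays to their medians gave 0.09 with empty vector and put the median over all probes at 0.62, so Gja1 lay -0.53 from that median, against -0.24 under quantile normalisation.

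**Figure D1:**
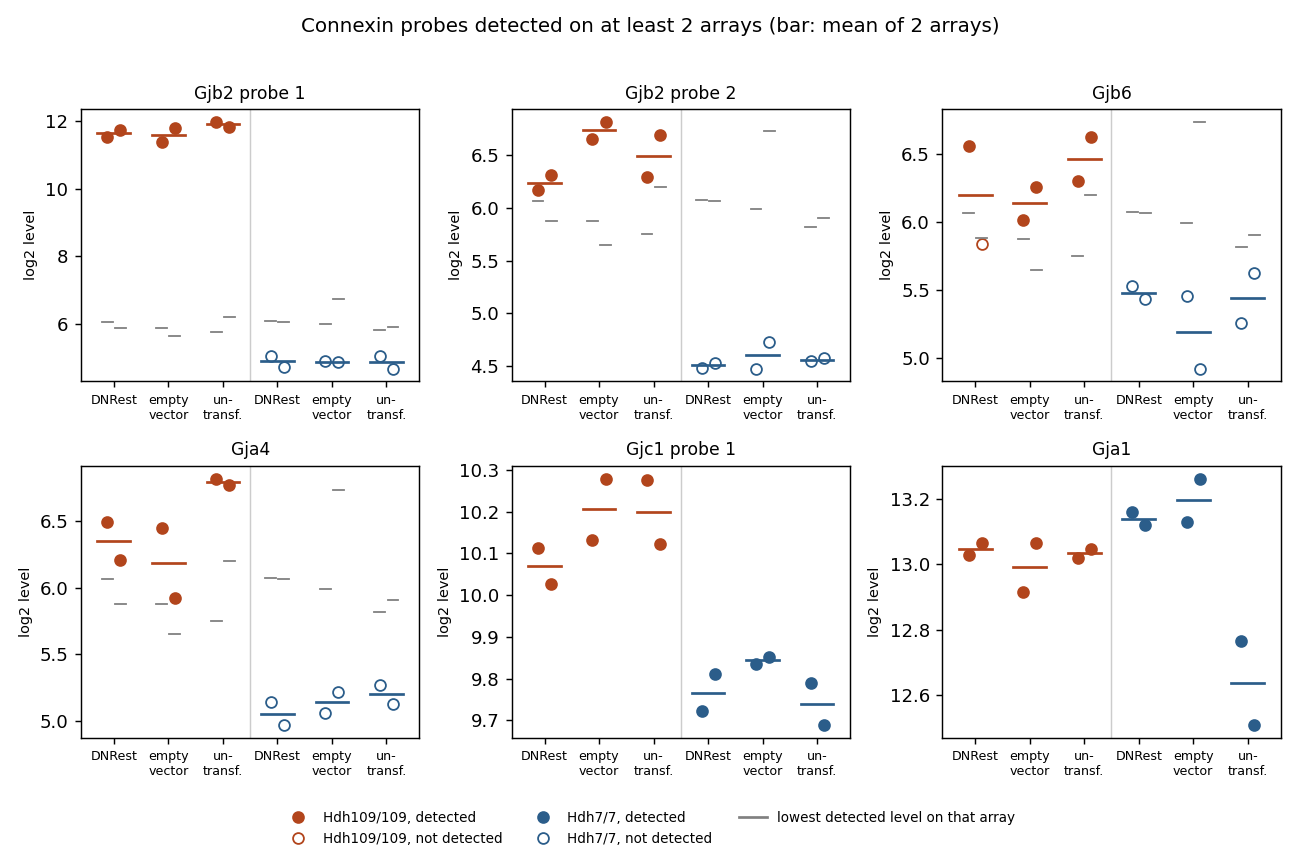
Normalised log2 bead signal (vertical axes, 1 scale per panel) of the 6 tested connexin probes on each of 12 arrays, with Hdh109/109 groups left of Hdh7/7 groups; filled points were detected, open points were not, bars are means of 2 arrays and short grey lines, left out for Gjc1 and Gja1, mark the lowest detected level on that array. Both Gjb2 probes and Gja4 were detected on 6 of 6 Hdh109/109 arrays and 0 of 6 Hdh7/7 arrays, and the lowest Gja1 values are those of untransfected Hdh7/7 cells.

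**Figure D2:**
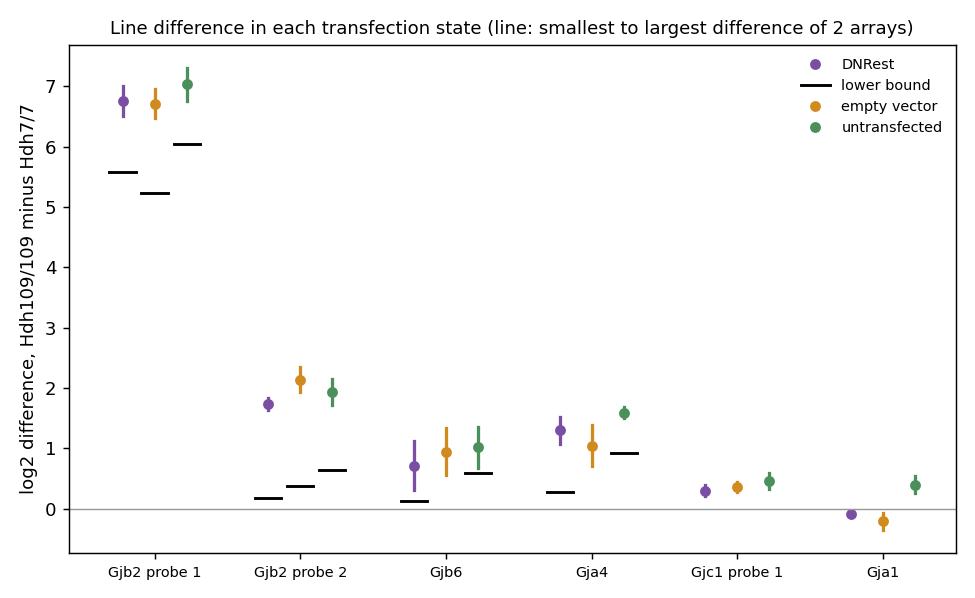
Difference of mean log2 levels, Hdh109/109 minus Hdh7/7, for each tested connexin probe in each transfection state; vertical lines run from the smallest to the largest difference between an array of one line and an array of the other, and black bars mark the lower bound where Hdh7/7 cells were not detected and the bound exceeds 1-fold. Points of Gjb2, Gjb6 and Gja4 are measured against undetected Hdh7/7 signals, so only their bounds are folds, and Gja1 lies on both sides of 0.

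Of the 6 tested connexin probes, 3 were past an adjusted p of 0.05 between the lines with DNRest (limma, Benjamini-Hochberg over 15224 probes), 5 with empty vector and 6 untransfected. Among all probes tested, 36.8% were past it with DNRest, 43.2% with empty vector and 35.6% untransfected. The choice of genes rested on these contrasts. Both Gjb2 probes, Gjb6 and Gja4 also entered the tests through Hdh109/109 cells alone. Nothing is therefore read from the counts or from setting them beside the shares of all probes. All called connexin probes were higher in Hdh109/109 cells. Of all probes tested, 18.2% were called and higher with DNRest, 22.9% with empty vector and 17.6% untransfected. Among called probes alone, the share that was higher came to 49.4%, 53.1% and 49.4% in these states.

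Gjb5 and Gja5 were detected nowhere. The Gjb5 probe read 4.52 to 4.74 log2 on Hdh109/109 arrays and 4.53 to 4.87 on Hdh7/7 arrays, with a detection p of at least 0.323. The 4 Gja5 probes read 4.58 to 5.54 on Hdh109/109 arrays and 4.51 to 6.26 on Hdh7/7 arrays. The highest of these values, 6.26, was on Hdh7/7 empty vector 2, the array whose lowest detected level was 6.73. Both remaining Gjc1 probes were undetected too, at 4.52 to 5.35 on Hdh109/109 arrays and 4.51 to 5.60 on Hdh7/7 arrays, while probe 1 was detected on every array. For these 7 probes the lines overlapped and no fold is given.

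The other connexins analysed gave no detected signal either. The 11 probes of 9 further connexin genes were detected on 0 of 12 arrays at log2 levels of 4.48 to 6.04. Panx1, a pannexin channel gene unrelated in sequence to the connexins, was detected on all arrays by 1 of 2 probes, with line differences of -0.25 with DNRest, -0.32 with empty vector and 0.05 untransfected, none past the threshold. With arrays scaled to their medians Panx1 stood at 0.06 with DNRest and 0.47 with empty vector, both below the medians over all probes of 0.17 and 0.62.

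**Figure D3:**
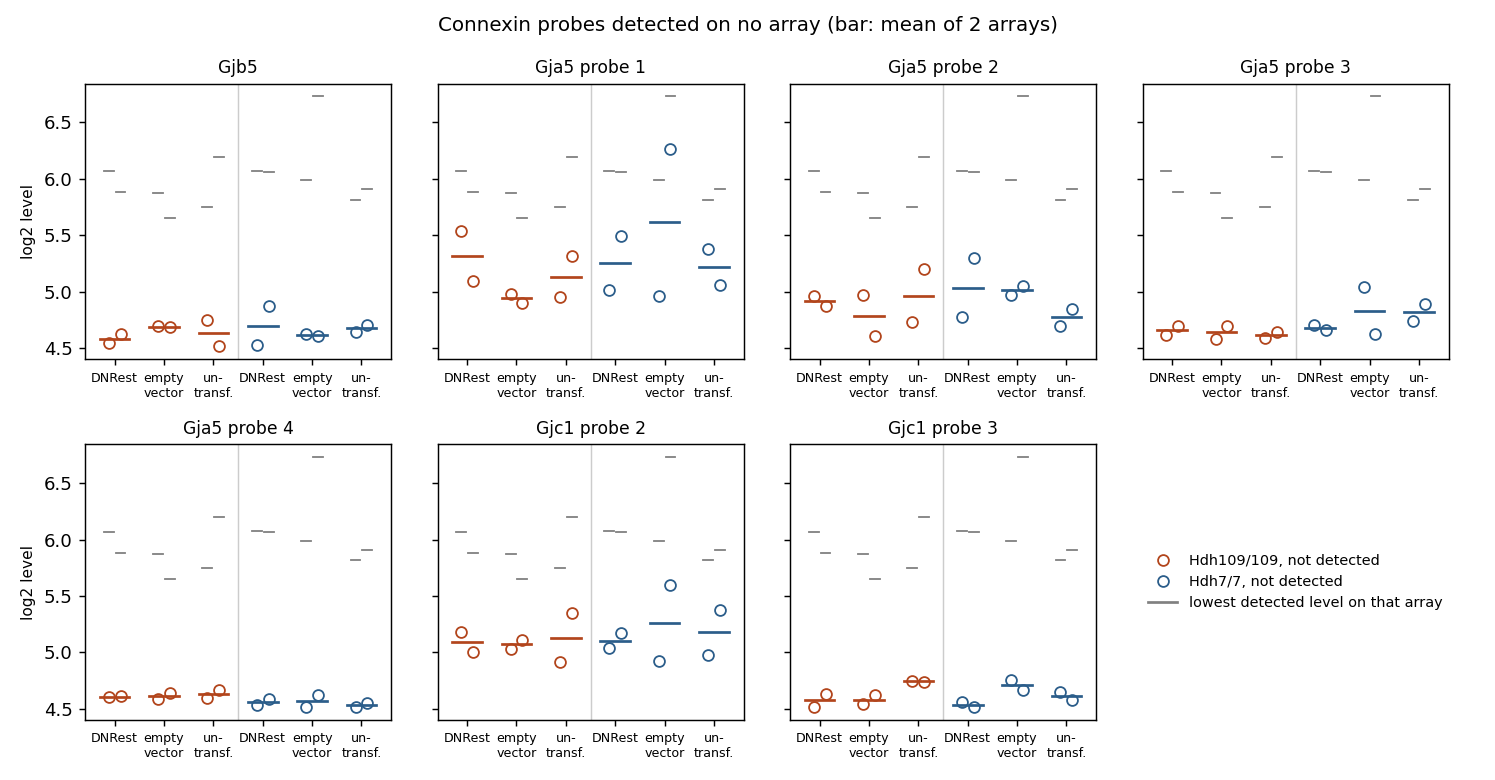
Normalised log2 bead signal of the 7 connexin probes detected on no array, with Hdh109/109 groups left of Hdh7/7 groups; open points are arrays, bars are means of 2 arrays and short grey lines mark the lowest level detected on each array. Points lie between 4.51 and 6.26, the lines overlap for each probe, and the highest point, Gja5 probe 1 on Hdh7/7 empty vector 2, stands below its array's grey line at 6.73.

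Transfection contrasts played no part in choosing the genes and were tested. DNRest was compared with empty vector and empty vector with untransfected cells, so both contrasts share the empty vector arrays. With DNRest, 0 of 6 connexin probes were past the threshold in either line, where 0.138% of all probes were past it in Hdh109/109 cells and 0.0985% in Hdh7/7 cells (limma). At an unadjusted p under 0.05 (limma) there was 1 connexin probe of 6 in Hdh109/109 cells and 0 of 6 in Hdh7/7 cells. Both Gjb2 probes, Gjb6 and Gja4 were undetected on every Hdh7/7 array, so only Gja1 and Gjc1 probe 1 could show a response there. Counts of 6 in Hdh7/7 cells, and for differences between the lines in a response, include these undetected probes. No absence of a response is read from them. Gjb2 probe 1 differed between DNRest and empty vector by 0.05 log2 in Hdh109/109 cells (95% interval -0.38 to 0.48). For Gjb2 probe 2, the probe counted above, the difference was -0.50 (-0.86 to -0.14, adjusted p = 0.359 by limma). The probes therefore disagreed in sign, and neither difference passed adjustment. In Hdh7/7 cells Gjb2 stayed undetected with DNRest.

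For the remaining connexins the intervals cover the spread between arrays under quantile normalisation, and not the choice of scaling. Gja1 differed by 0.06 in Hdh109/109 cells (95% interval -0.24 to 0.35) and by -0.06 in Hdh7/7 cells (-0.35 to 0.24). Gjc1 differed by -0.14 in Hdh109/109 cells (-0.42 to 0.14) and by -0.08 in Hdh7/7 cells (-0.36 to 0.20). Gja4 differed by 0.17 (-0.24 to 0.58) and Gjb6 by 0.06 (-0.52 to 0.64) in Hdh109/109 cells. With arrays scaled to their medians, Gjb2 probe 1, Gjb6, Gja1 and Gja4 took the other sign in Hdh109/109 cells, and Gja1 and Gjc1 did in Hdh7/7 cells, none past the threshold. Gjc1 in Hdh109/109 cells then stood at -0.49, outside its interval given above, and was not called. That scaling put the median over all probes at -0.31 in Hdh109/109 cells and 0.11 in Hdh7/7 cells. From that median, Gjc1 lay -0.18 in Hdh109/109 cells. For the difference between the lines in the DNRest response, limma called 0 of 6 connexin probes and 0% of all probes, while 1247 probes, 0 of them connexins, had an unadjusted p under 0.05.

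Empty vector against untransfected cells gave the only connexin call. Gja1 rose with empty vector in Hdh7/7 cells by 0.56 log2 (SE 0.13, 95% interval 0.26 to 0.86, limma adjusted p = 0.0205), with 13.13 and 13.26 in empty vector cells, against 12.77 and 12.51 in untransfected cells. It was 1 of 6 connexin probes, of which only Gja1 and Gjc1 probe 1 were detected in Hdh7/7 cells. Of all probes, 15.7% were past the threshold, and 6.17% were past it and higher. In Hdh109/109 cells Gja1 differed by -0.04 (-0.34 to 0.25, adjusted p = 0.897). The difference between the lines in this response was -0.60 (Hdh109/109 minus Hdh7/7, 95% interval -1.02 to -0.18, limma adjusted p = 0.0651), which missed the threshold that 12% of all probes passed; Gja1 was the 1 connexin probe at an unadjusted p under 0.05.

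The Gja1 call was lost in only some alternatives, among them single arrays left out and the median scaling. The difference kept its sign in all 20 alternatives, at 0.21 to 0.69 log2. Without Hdh7/7 untransfected 2 it was 0.43 (adjusted p = 0.128), without Hdh7/7 empty vector 2, an array of high background, 0.49 (adjusted p = 0.112), and with only the arrays compared 0.56 (adjusted p = 0.148), all by limma, over a range of 0.0038 to 0.659 for all alternatives. With arrays scaled to their medians it was 0.21 (adjusted p = 0.659), and the median of all probes then shifted by -0.45, so Gja1 lay 0.66 above that median, against 0.60 above it under quantile normalisation. In the same comparison the summed signal of 6 astrocyte markers was 323 to 457 with empty vector, against 765 to 868 untransfected, with Slc1a3 at -1.74 and Gfap, Slc1a2, Aqp4 and S100b detected on no array. Their part in the Gja1 result was not tested.

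Gja4 differed between empty vector and untransfected Hdh109/109 cells by -0.61 log2 (95% interval -1.02 to -0.20), without passing adjustment (limma adjusted p = 0.117). It was the 1 connexin probe at an unadjusted p under 0.05 there, and 0 of 6 were called where 2.92% of all probes were. Leaving out Hdh109/109 empty vector 1 gave -0.86 (adjusted p = 0.0253 by limma), over a range of 0.0253 to 0.692 for all alternatives. Gja4 was undetected in Hdh7/7 cells, where a fall could not be measured, so no difference between the lines in this response is given. Interferon response genes stood apart in the Hdh109/109 comparison, with a summed signal of 9587 to 10897 with empty vector in Hdh109/109 cells, against 509 to 534 untransfected, for 6 genes of which Ifit1 and Mx1 were undetected. Their part in the Gja4 value was not tested.

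Gjb2 probe 1 differed by -0.31 with empty vector in Hdh109/109 cells (95% interval -0.74 to 0.12, limma adjusted p = 0.421) and probe 2 by 0.24 (-0.12 to 0.60), again in opposite directions and short of the threshold. Gjb6 differed by -0.33 (-0.91 to 0.26) and Gjc1 by 0.01 (-0.27 to 0.29). In Hdh7/7 cells Gjc1 differed by 0.10 (-0.17 to 0.38), and by -0.44 with arrays scaled to their medians, close to the shift of all probes.

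**Figure D4:**
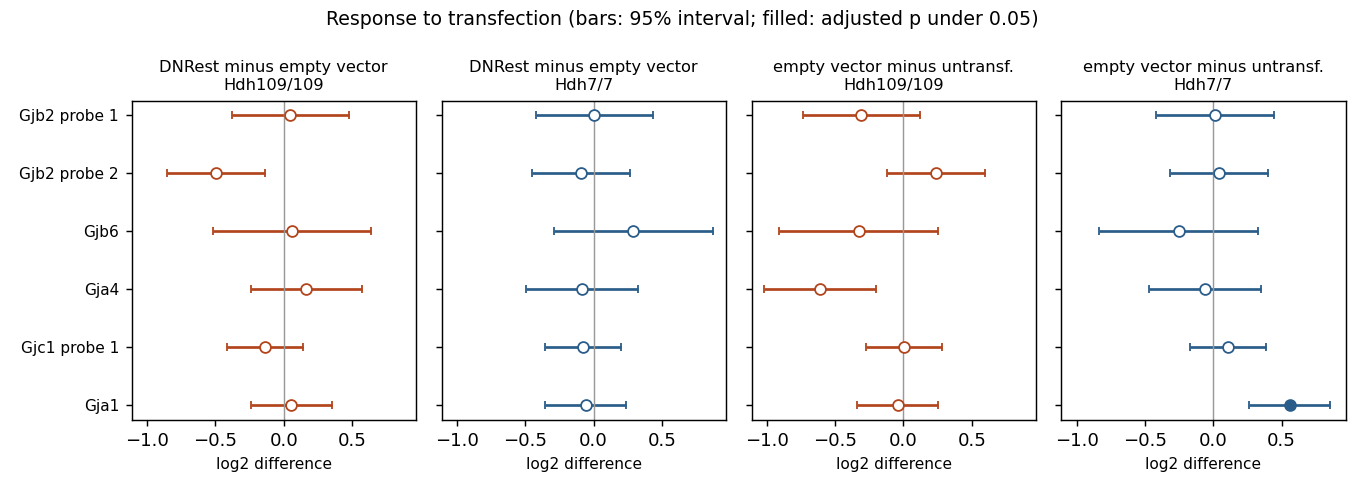
Log2 differences of the 6 tested connexin probes with 95% intervals (limma) for DNRest minus empty vector and empty vector minus untransfected in each line; filled points have an adjusted p under 0.05 and both contrasts share the empty vector arrays. Gja1 in Hdh7/7 cells, at 0.56, is the 1 filled point. In Hdh7/7 cells the points of Gjb2, Gjb6 and Gja4 come from undetected signals.

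Genes whose products act on connexins were listed with earlier results known. Among scaffolds and membrane partners, 5 of 7 tested genes were higher and 2 lower in Hdh109/109 cells with DNRest, 5 higher and 1 lower with empty vector, and 3 higher and 2 lower untransfected (limma, adjusted p under 0.05 over all probes). Of all genes tested, 39.2% were called with DNRest (19.9% higher, 19.3% lower), 46.3% with empty vector (23.9% higher, 22.4% lower) and 39% untransfected (18.1% higher, 20.9% lower). The list's median log2 difference was 0.97 with DNRest, 1.17 with empty vector and 0.66 untransfected, beside -0.02, 0.01 and -0.01 over all genes. Ccn3, a secreted matricellular protein that binds the Gja1 protein, was 3.15 log2 higher untransfected, and at least 9.38-fold higher with DNRest, where Hdh7/7 cells did not detect it. Cav1, a caveolin that associates with connexins in lipid rafts, was 1.97 higher with DNRest and 1.49 higher untransfected. Cav2, the other caveolin of the list, was lower, at -1.21 with DNRest and -1.11 untransfected. Ctnnb1, the beta-catenin of adherens junctions, was 0.97 and 1.01 higher in these states. Cdh2, the neural cadherin that precedes gap junction assembly, was lower, at -1.88 with DNRest and -1.17 untransfected.

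The lists for traffic, phosphorylation and transcription were divided in direction. For assembly, traffic and turnover, 3 of 8 genes were higher and 2 lower with DNRest, 3 and 3 with empty vector, and 2 and 1 untransfected, with medians of -0.11, -0.10 and -0.02. Wwp1, counted as lower with empty vector, passed the detection filter through Hdh7/7 cells, with 4 arrays detected against 1 in Hdh109/109 cells. In untransfected cells, Ubqln4, a ubiquitin-like protein that brings the Gja1 protein to the proteasome, was 0.83 higher, Nedd4, a ubiquitin ligase of that protein, 0.80 higher, and Stub1, another ubiquitin ligase, lower at -0.53. Ubqln4 was lower in the transfected states, at -0.51 with DNRest and at -0.55 with empty vector. Scaled to medians, Ubqln4 stood at -0.29 with DNRest and at 0.18 with empty vector, beside medians over all probes of 0.17 and 0.62, and neither was called. Untransfected, Nedd4 (adjusted p = 0.0592 by limma) and Stub1 (adjusted p = 0.163) also lost their calls under that scaling. Of 8 connexin kinases, 0 were higher and 2 lower with DNRest, 2 higher and 3 lower with empty vector, and 0 higher and 1 lower untransfected, the last being Csk, which restrains Src, at -0.78. The kinase medians were -0.15 with DNRest, -0.07 with empty vector and -0.12 untransfected. Transcription factors of connexin genes gave 1 higher and 2 lower of 7 with DNRest, 3 and 3 with empty vector, and 2 and 3 untransfected, with medians of -0.11, -0.14 and -0.25. Tfap2a, counted as lower in each state, entered the tests through Hdh7/7 cells alone, so nothing is read from the lower counts.

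Among those factors Irx3, which controls connexin genes of the mouse cardiac conduction system, was 2.28 higher in untransfected Hdh109/109 cells. Tfap2a, an AP-2 factor, was detected in Hdh7/7 cells only, and was at least 2.71-fold lower in untransfected Hdh109/109 cells. Fos was lower at -3.19 and Jun, its AP-1 partner, at -0.85 in untransfected Hdh109/109 cells. Fos was higher at 1.26 with empty vector and stood at 0.14, short of the threshold, with DNRest. In the empty vector state, 4 called genes of these lists, Ubqln4, Stub1, Src and Irx5, took the other sign when arrays were scaled to their medians, which shifted the median of all probes by 0.62; no called gene of these lists did so in the other states.

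**Figure D5:**
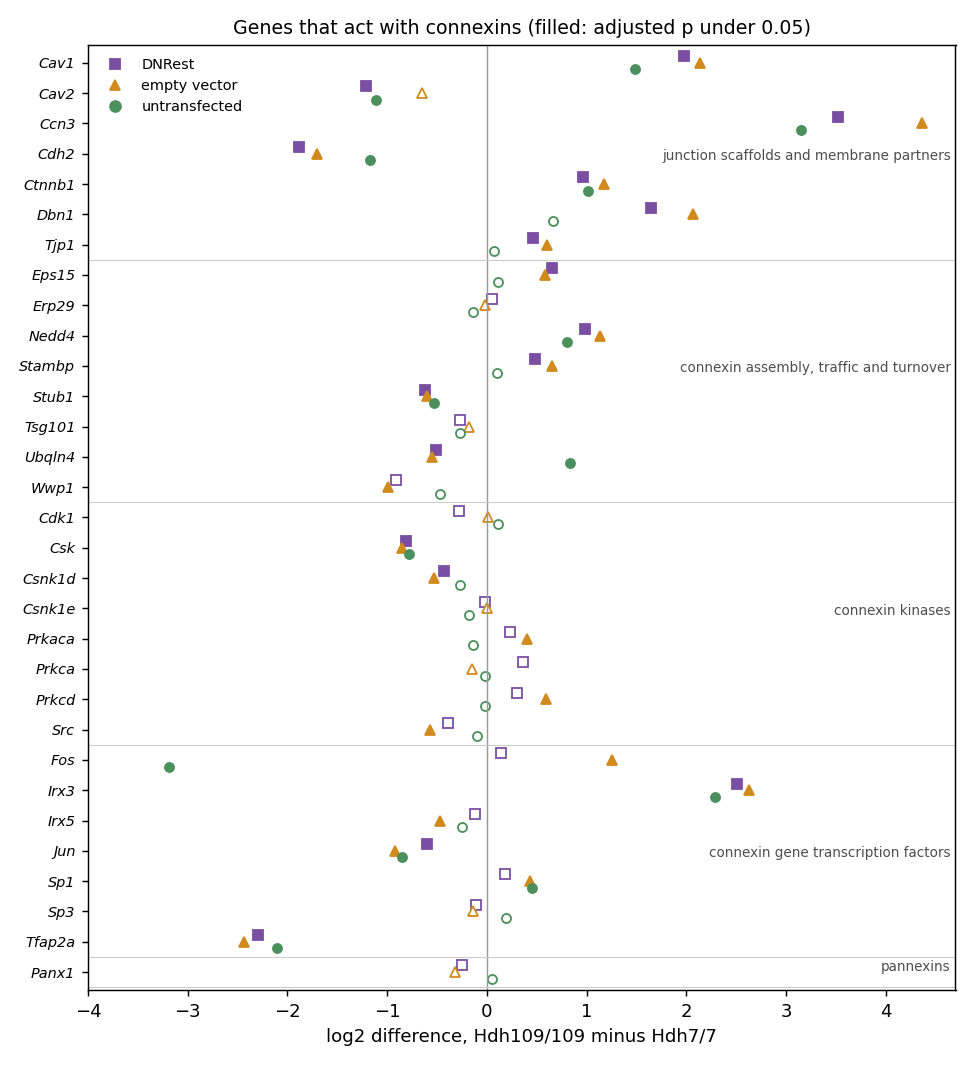
Log2 difference, Hdh109/109 minus Hdh7/7, in each transfection state for the tested genes whose products act on connexins and for Panx1; filled symbols have an adjusted p under 0.05 (limma). Ccn3 lies farthest to the right in each state and Fos, at -3.19 untransfected, farthest to the left.

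With empty vector in Hdh7/7 cells, the comparison in which Gja1 was called, 2 of 7 partners fell and 0 rose, where 17.9% of all genes were called. They were Dbn1, the actin-binding drebrin that holds Gja1 protein at the membrane, at least 1.40-fold lower, and Ccn3, at least 1.24-fold lower, both undetected with empty vector. Ubqln4 rose by 0.88, or by 0.35 and without a call (limma adjusted p = 0.431) with arrays scaled to their medians, and Stambp, a deubiquitinating enzyme of endosomes, fell by 0.70. Fos fell by 2.35 in Hdh7/7 cells and rose by 2.10 in Hdh109/109 cells, and the difference between the lines was 4.45 (limma adjusted p = 5.4e-05). No kinase of the list was called in either line. With DNRest against empty vector, 0 genes of these lists were called by limma in either line.

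The genes closest to each connexin in pattern were found by the root mean square difference over the 6 group means, each gene centred on its own mean, among 8333 genes. For Gjb2 these were Zic1 (0.13 log2), Sim2 (0.22), Slc38a4 (0.27), Gask1b (0.29) and Bag3 (0.39), beside a median of 3.43 over all genes. All 5 were detected on 6 of 6 Hdh109/109 arrays and 0 of 6 Hdh7/7 arrays, as Gjb2 was. For Gjb6 they were Lpar2, St3gal4 and Xylb (0.05 to 0.07, median of all genes 0.53), and for Gja4 Cracd, Eif4b and Hoxa2 (0.10 to 0.11, median 0.73). For Gja1 they were Mars1, Mapre1 and Phkg2 (0.03 to 0.05, median 0.33), and for Gjc1 Smarca4, Zc3h14 and Tor2a (0.03 to 0.04, median 0.33). Such distances over 6 points describe likeness and carry no test.

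Genes beside the Gjb2 and Gjb6 loci were looked up by position after values had been seen. The nearest gene with a tested probe on the side of Gjb6 was Cryl1, 141.4 kb away, at 11.4 ± 0.12 log2 in Hdh109/109 cells and 8.96 ± 0.30 in Hdh7/7 cells (SD, n = 6 each). On the other side, 283.6 kb below Gjb2, Zmym5 stood at 8.76 ± 0.32 in Hdh109/109 cells and 8.57 ± 0.12 in Hdh7/7 cells. These are values without a test.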

How the data were processed

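Total RNA of 12 samples was amplified, biotin-labelled and read on bead arrays, per the labels' protocols. The deposited unnormalised table gives a linear intensity (bead signal) for each probe and array, and a detection p-value beside it, per the file headers. The submitters' processing notes name limma without a version. Scanner software and genome build are not given in the sources used here. Values of the deposited series matrix were left out, because its rows correlated with the signal by identifier at only 0.0175 to 0.0341.

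Signals were background-corrected with nec, which used the detection p-values and an added offset of 16, followed by quantile normalisation and log2, in limma 3.58.1 and R 4.3.3. One linear model with a mean for each of the 6 groups was fitted to all 12 arrays (6 residual degrees of freedom, eBayes) over the 15224 probes that 2 or more arrays detected (p below 0.01). Two-sided p-values were adjusted by Benjamini-Hochberg over those probes, and a call needed an adjusted p under 0.05. The fit was tested on simulated data. The precision is limited by 2 arrays in a group.

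Of the 44505 probes, 28471 had 1 gene symbol in the platform annotation, 10 had several and 16024 had none. A listed gene was read from its brightest probe. The connexin genes and the gene lists were chosen with earlier results of these data known. Named genes were all connexins, up to 4 genes of a list with the lowest adjusted p, and the 3 genes (5 for Gjb2) of nearest pattern. Cav2 was added beside Cav1. Replicate numbers did not pair the samples: deviations of same-numbered arrays correlated at -0.445 to 0.359 over 15 pairs of groups, over 0.1 in 2 of them. Alternatives were another scaling, no background correction, other detection filters, other sets of arrays, array weights, a replicate block and each array left out.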

Additional observations from a re-analysis of the deposited data

How the results depend on the processing

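No value of a single connexin probe reversed a called direction among 1044 values under the alternatives, and 163 of 180 counts of called connexin probes stayed within 1.5 times. Many of the 1044 values belong to results without a call, where a change of sign was not counted as a reversal. Such changes occurred, as for Gja1 between the lines with empty vector, at -0.28 to 0.09. With probes detected on all 12 arrays, only Gja1 and Gjc1 probe 1 were tested, and 2 were called between the lines untransfected, 1 with empty vector, 0 with DNRest, and 1 in the difference between lines in the empty vector response. Array weights gave 5 called between the lines with DNRest and 3 with empty vector. Without both arrays of high background, chosen after seeing the data, 3 were called with empty vector. For empty vector against untransfected Hdh7/7 cells, the count was 0 with median scaling, 0 with only the arrays compared and 0 without the high-background arrays. Without background correction, the difference between lines in the empty vector response gave 1 call. Leaving out 1 array at a time gave 3 to 5 calls between the lines with empty vector (3 without Hdh109/109 empty vector 2 or without Hdh7/7 empty vector 2), 0 to 1 for empty vector against untransfected in Hdh109/109 cells, 0 to 1 in Hdh7/7 cells and 0 to 1 for the difference between lines, the 1 being Gja4, undetected in Hdh7/7 cells. The causes were not tested. For these counts, and those with the replicate block below, the share of all probes called is not given. Nothing about the connexins is read from these counts.

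Among 696 values of transfection contrasts, 9 changed side of the threshold, all of Gja1 or Gja4. With median scaling the split of all called probes moved: 91% were higher between the lines with empty vector, against 53.1% under quantile normalisation, 72.2% against 49.4% with DNRest, 90.6% against 67.1% for empty vector in Hdh109/109 cells, 1.6% against 39.4% in Hdh7/7 cells, 12.8% against 95.2% for DNRest in Hdh109/109 cells, and 98.4% against 59.2% for the difference in the empty vector response. The median of all probes moved with it by 0.62, 0.17, 0.14, -0.45, -0.31 and 0.63 in these comparisons. With the replicate block the counts were 5 between the lines untransfected, 4 with empty vector, 3 with DNRest, 1 for empty vector in Hdh7/7 cells and 0 in the rest, and no transfection call changed. A chip block was not run, since the column headers name no chips. Signals near background limit Gjb6, Gja4 and Gjb2 probe 2.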
